A study of Mus musculus with 35 samples.

Results

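The genes described here are 10 genes that hepatocytes around the central vein of the liver lobule express under Wnt control: Glul, Axin2, Lgr5, Tbx3, Oat, Rhbg, Slc1a2, Cyp2e1, Cyp1a2 and Nkd1. They were chosen by name, and each was read from its brightest probe set that is annotated to no other gene. All 10 had such a probe set among 18820 genes on the array. Their levels were followed over 35 arrays in 8 groups, and each of the 13 tumor arrays was also read on its own for a raised or a lost pattern of these genes.

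Liver RNA was measured in 3 mouse models of liver cancer, with 1 array per sample. DEN tumor (5 arrays) and DEN NTL, the non-tumorous liver (5 arrays), came from mice injected intraperitoneally with the carcinogen diethylnitrosamine at 10 mg per kg body weight on day 15 of life and examined at 9 months, and DEN control (5 arrays) is liver of untreated mice. LTα/β tumor (3 arrays) and LTα/β NTL (5 arrays), written LT below, came from tg1223 mice, whose livers express lymphotoxin alpha and lymphotoxin beta and which were examined at 12 months. MYC tumor (5 arrays) and MYC NTL (3 arrays) came from crosses of TRE-MYC with LAP-tTA mice, in which a liver-specific promoter drives the activator and doxycycline chow (200 mg per kg) kept MYC off until 8 weeks of age, with no end age stated. The LTα/β - MYC control (4 arrays), written LT/MYC control below, is liver of transgene negative mice and serves both transgenic models. The labels name neither the strain nor the number of pooled animals, if any.

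Some tumors may share a mouse: DEN tumors 1 and 4 have identifiers with the same stem, as do DEN tumors 3 and 5 and LT tumors 1 and 2, so the 5 DEN tumors carry 3 stems and the 3 LT tumors carry 2. Tumor and NTL never had a stem in common within a model, so tissue and animal cannot be told apart in those comparisons. The identifiers of MYC NTL start with WT, and whether these livers carry the transgenes was not settled by the labels. Xist, an RNA made from the inactive X chromosome, had log2 values of 11.74 to 12.22 on 9 arrays and did not pass 6.24 on the remaining 26. Every LT tumor and 4 LT NTL arrays were among the 9, with 1 array of each control group and none of the other groups, although controls are described as sex-matched. The labels place DEN in 1 experiment and LT with MYC in another, so a difference between the DEN and the transgenic models cannot be told apart from a difference between experiments.

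In the liver lobule, Wnt ligands and R-spondin released by endothelial cells of the central vein keep beta-catenin active in the hepatocytes next to it. These pericentral hepatocytes make glutamine from ammonia and carry many of the cytochrome P450 enzymes, whereas periportal hepatocytes run the urea cycle and gluconeogenesis. Liver tumors with mutated beta-catenin are known for a high level of glutamine synthetase, and the genes read here are widely used to recognise that state. In bulk tissue, fewer cells that express a gene and less of its RNA per cell cannot be told apart.

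The stretches of 250 bases upstream of 3 members, Slc1a2, Cyp2e1 and Cyp1a2, are shown because each holds the letters of a core motif of the TCF/LEF factors, through which beta-catenin acts on DNA. They are from RefSeq on GRCm38.p6, written 5′ to 3′ on the gene's strand and ending at the base before its start, with the match in capitals. The Slc1a2 stretch is chr2:102706188-102706437 on the plus strand, the Cyp2e1 stretch is chr7:140763569-140763818 on the plus strand, and the Cyp1a2 stretch is chr9:57683656-57683905 on the minus strand.
Slc1a2: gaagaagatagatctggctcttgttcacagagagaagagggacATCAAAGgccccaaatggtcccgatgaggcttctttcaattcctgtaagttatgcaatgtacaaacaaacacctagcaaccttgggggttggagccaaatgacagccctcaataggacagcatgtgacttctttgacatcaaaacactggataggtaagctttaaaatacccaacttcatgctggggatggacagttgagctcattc
Cyp2e1: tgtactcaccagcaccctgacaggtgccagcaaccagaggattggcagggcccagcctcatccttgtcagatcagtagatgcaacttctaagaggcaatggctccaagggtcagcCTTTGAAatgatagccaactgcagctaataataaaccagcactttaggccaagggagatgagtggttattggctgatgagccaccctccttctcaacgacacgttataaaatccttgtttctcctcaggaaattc
Cyp1a2: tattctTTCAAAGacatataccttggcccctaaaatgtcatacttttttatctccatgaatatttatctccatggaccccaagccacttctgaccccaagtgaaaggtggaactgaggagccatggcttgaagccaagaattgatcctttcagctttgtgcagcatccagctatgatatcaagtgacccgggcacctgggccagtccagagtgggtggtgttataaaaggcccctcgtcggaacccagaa
The letters searched, on both strands, were CTTTGAT as well as CTTTGAA, together with CTTTGTT and also CTTTGTA. The match began 207 bases upstream of the start in Slc1a2, 135 in Cyp2e1 and 244 in Cyp1a2. Of the 7 members with an entry in the table, 3 held a match and Glul, Axin2, Oat and Nkd1 did not, and no 2 matches overlapped. Among all 32851 stretches of the same length in the table, 14.8% held one. A match describes these letters only and is no measure of binding.

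The first question was whether the members stood apart in tumors of each model, first by the means of the groups. In DEN tumors 2 of 10 members were lower than in NTL by limma (adjusted p under 0.05), and 32.2% of all genes were called in that comparison, 16.7% of all as lower. In LT tumors none of the 10 was called against NTL, where 20.4% of all genes were (10.7% higher and 9.73% lower), and 2 members had an unadjusted p under 0.05. In MYC tumors 1 member, Nkd1, was called higher than in NTL, where 21.8% of all genes were called, 11.5% as higher and 10.3% as lower. The members' counts lay near these shares, and nothing is read from them. The median log2 change of the 10 members was -0.89 for DEN, 0.54 for LT and 0.68 for MYC, beside -0.04, -0.03 and -0.03 for the whole array in the same order.

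Single tumors gave another picture. A tumor value is called above or below here when it lay outside the whole range of the NTL and control arrays of its model. MYC tumor 3 had all 10 members below that range, against 25.7% of all genes on its array. The other 4 MYC tumors had 10, 8, 9 and 8 members above it and none below (replicates 1, 2, 4 and 5), against 18.1%, 23.2%, 20.7% and 23.5% of all genes above. The MYC mean therefore averaged 4 arrays with most members high and 1 array with every member low. MYC tumor 3 is singled out below by its values for these same members. Fits without it had to give higher changes in MYC tumors, and their p-values are no separate support. The same limit applies to fits without other tumors named for their member values.

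DEN tumors split in a similar way. All 10 members were below the range in DEN tumors 1 and 2 and 9 of 10 in DEN tumor 4, where Lgr5 lay within it, against 21.1%, 26.9% and 26.2% of all genes below and 21.3%, 22.3% and 21% above. DEN tumor 3 had 7 members above the range and 1, Nkd1, below it, and DEN tumor 5 had 4 above and again Nkd1 below, against 22.2% and 20.1% of all genes above and 27.5% and 24.2% below. LT tumor 1 had 7 members above and none below, and LT tumor 2 had 6 above with Nkd1 and Cyp2e1 below, against 22.1% and 20.6% of all genes above and 30.2% and 23.7% below. LT tumor 3 had 2 above (Tbx3 and Slc1a2) and 3 below (Oat, Cyp2e1 and Cyp1a2), against 13% and 14.4%. In each of the 3 pairs with a shared stem, both tumors leaned to the same side. DEN tumors 1 and 4 had most members below, and DEN tumors 3 and 5 and LT tumors 1 and 2 had more above than below. The DEN tumors on the high side thus carried 1 stem, as did those of LT, and may not be independent. DEN tumor 2, also low, had a stem of its own.

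**Figure D1:**
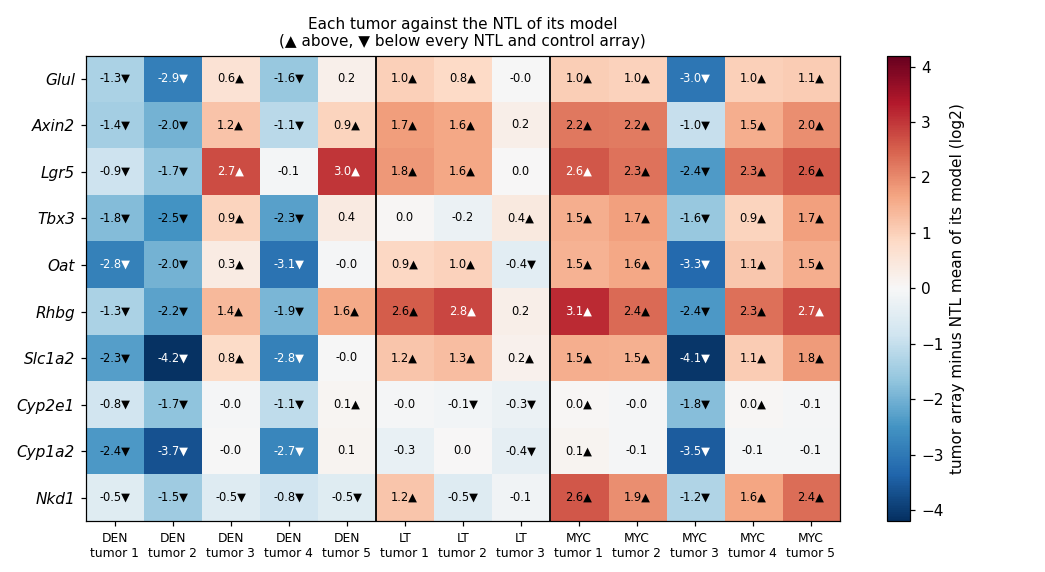
Each cell gives the log2 value of 1 tumor array minus the mean of the NTL arrays of its model, for 10 genes (rows) and 13 tumors (columns). Triangles mark values above or below every NTL and control array of the model: MYC tumor 3 and DEN tumors 1 and 2 are below in all 10 genes, and MYC tumor 1 is above in all 10.

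Glul encodes glutamine synthetase, which in normal liver is confined to a narrow ring of hepatocytes at the central vein. It read 10.76, 9.21, 12.71, 10.49 and 12.31 in DEN tumors 1 to 5, 11.97, 12.29, 12.16, 12.06 and 11.99 in DEN NTL and 11.65, 12.14, 12.41, 11.79 and 12.01 in DEN controls (log2 values, here and for the other members). DEN tumors 1, 2 and 4 were below every DEN NTL and control array, tumor 3 was above them and tumor 5 among them. It read 13.35, 13.19 and 12.35 in LT tumors, 12.26, 12.46, 12.39, 12.40 and 12.28 in LT NTL and 12.90, 12.88, 12.65 and 12.45 in LT/MYC controls. LT tumors 1 and 2 were the 2 highest of these arrays, and LT tumor 3 was among the NTL values. It read 13.49, 13.43, 9.41, 13.45 and 13.52 in MYC tumors and 12.37, 12.44 and 12.54 in MYC NTL. The other 4 MYC tumors lay above every MYC NTL and control array, and tumor 3 differed from the NTL mean by -3.04.

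The mean change of Glul against NTL was -0.999 ± 0.55 in DEN (SE, limma adjusted p = 0.17), 0.60 ± 0.63 in LT (adjusted p = 0.555) and 0.21 ± 0.63 in MYC tumors (adjusted p = 0.855), with a 95% confidence interval of -1.08 to 1.505 in MYC. None of these passed the test. Glul had 2 probe sets of its own. The identifiers around that of the brighter probe set belong to genes of chromosome 11 (11 of 11 neighbouring genes), whereas Glul lies on chromosome 1, as do all 9 neighbours of the dimmer probe set, and what the brighter one reads was not tested. The dimmer probe set placed each of the 13 tumors in the same way. It read 13.09, 12.96, 8.35, 13.02 and 12.94 in MYC tumors and 11.37, 11.38 and 11.38 in MYC NTL.

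Axin2, a scaffold of the complex that degrades beta-catenin and a general readout of Wnt activity, split the tumors as Glul did, except for DEN tumor 5. That tumor was within the range for Glul and above it for Axin2. It read 5.62, 5.05, 8.24, 5.91 and 7.99 in DEN tumors, 7.01, 7.22, 6.51, 6.95 and 7.53 in DEN NTL and 6.43, 6.32, 7.47, 6.87 and 6.72 in DEN controls. DEN tumors 1, 2 and 4 were below and tumors 3 and 5 above all 10 non-tumor arrays. It read 8.04, 7.92 and 6.54 in LT tumors, 5.96, 6.06, 6.66, 6.42 and 6.36 in LT NTL and 6.97, 6.68, 6.75 and 6.27 in LT/MYC controls. It read 8.60, 8.57, 5.43, 7.90 and 8.36 in MYC tumors and 6.29, 6.53 and 6.36 in MYC NTL. LT tumors 1 and 2 and MYC tumors 1, 2, 4 and 5 were above every array of their NTL and controls. The mean change against NTL was -0.48 ± 0.50 in DEN, 1.21 ± 0.58 in LT tumors and 1.38 ± 0.58 in MYC tumors (SE, limma adjusted p = 0.496, 0.151 and 0.0898), and without MYC tumor 3 it was 1.97 ± 0.49 in MYC (adjusted p = 0.00457).

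Lgr5, the R-spondin receptor that marks pericentral hepatocytes, had the largest single rise of the 10 members in DEN. It read 6.59, 5.81, 10.21, 7.38 and 10.48 in DEN tumors, 6.97, 7.72, 7.49, 7.25 and 7.93 in DEN NTL and 6.75, 6.75, 8.20, 7.57 and 7.58 in DEN controls. DEN tumors 3 and 5 were 2.74 and 3.01 above the NTL mean, and tumor 4, low for the other members, was among the non-tumor arrays. It read 9.87, 9.70 and 8.07 in LT tumors, 8.23, 8.13, 7.88, 8.52 and 7.57 in LT NTL and 8.40, 8.50, 7.94 and 8.66 in LT/MYC controls. It read 10.18, 9.85, 5.21, 9.84 and 10.16 in MYC tumors and 7.79, 7.56 and 7.36 in MYC NTL. LT tumors 1 and 2 and MYC tumors 1, 2, 4 and 5 were above every array of their NTL and controls, LT tumor 3 was among its NTL, and MYC tumor 3 was below all. The mean change was 0.63 ± 0.75 in DEN, 1.15 ± 0.86 in LT tumors and 1.48 ± 0.86 in MYC tumors against NTL (SE, limma adjusted p = 0.556, 0.385 and 0.236). Without MYC tumor 3 it was 2.44 ± 0.68 in MYC (adjusted p = 0.0105).

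Nkd1, an inhibitor of the Wnt pathway that is itself induced by it, was the only member called in a comparison of changes between models with all arrays in the fit. It read 6.79, 5.78, 6.74, 6.46 and 6.77 in DEN tumors, 7.32, 7.26, 7.35, 7.29 and 7.18 in DEN NTL and 6.998, 7.16, 7.35, 7.25 and 7.08 in DEN controls. All 5 DEN tumors were below all 10 non-tumor arrays, also DEN tumors 3 and 5, in which Axin2 and Lgr5 were above them. The share of all genes without overlap was not counted, so nothing is read from that. Nkd1 read 9.53, 8.87, 5.68, 8.58 and 9.29 in MYC tumors, 7.02, 6.94 and 6.84 in MYC NTL and 7.22, 7.47, 7.64 and 6.99 in LT/MYC controls. MYC tumor 3 was below and the other 4 were above every one of these arrays. It read 8.43, 6.71 and 7.12 in LT tumors and 7.25, 7.26, 7.36, 7.20 and 7.24 in LT NTL, so that LT tumors 1 and 2, alike in Glul, Axin2 and Lgr5, lay on opposite sides of the NTL.

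Nkd1 was higher in MYC tumors than in MYC NTL by 1.46 ± 0.47 (SE, limma adjusted p = 0.0255), in 4 of 5 tumors. Without MYC tumor 3, which these same values had singled out, the change was 2.13 ± 0.26 (adjusted p = 9.87e-07). The call also held without MYC tumor 4 (adjusted p = 0.0432), but not without any 1 of the other 3 tumors or the 3 NTL arrays (adjusted p = 0.0579 to 0.0786), nor with MYC tumor and NTL alone in the fit (adjusted p = 0.216, 18.2% of all genes called). In DEN tumors it was -0.77 ± 0.41 (adjusted p = 0.153). The test borrows its spread from all groups, to which the split tumors contribute, and with DEN tumor and DEN NTL alone in the fit the adjusted p was 0.00651, where 29.1% of all genes were called. The DEN change minus the MYC change was -2.23 ± 0.62 (adjusted p = 0.0134), and Nkd1 was the only member of 10 called there, where 15.1% of all genes were called, 7.98% as lower. With the 4 groups concerned alone in the fit, the adjusted p was 0.0572, where 15% of all genes were called. Without MYC tumor 3, 7 of the 10 were called lower, against 17.0% of all genes, and the difference for Nkd1 was -2.91 ± 0.34 (adjusted p = 5.64e-07). No member was called between the DEN and LT changes, where 13.9% of all genes were called (6.3% higher and 7.61% lower) and 4 members had an unadjusted p under 0.05, nor between the LT and MYC changes, where 12.4% were called (5.76% higher and 6.6% lower) and none had. Without MYC tumor 3, Nkd1 was called between the LT and MYC changes, at -1.98 (adjusted p = 0.000609).

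**Figure D2:**
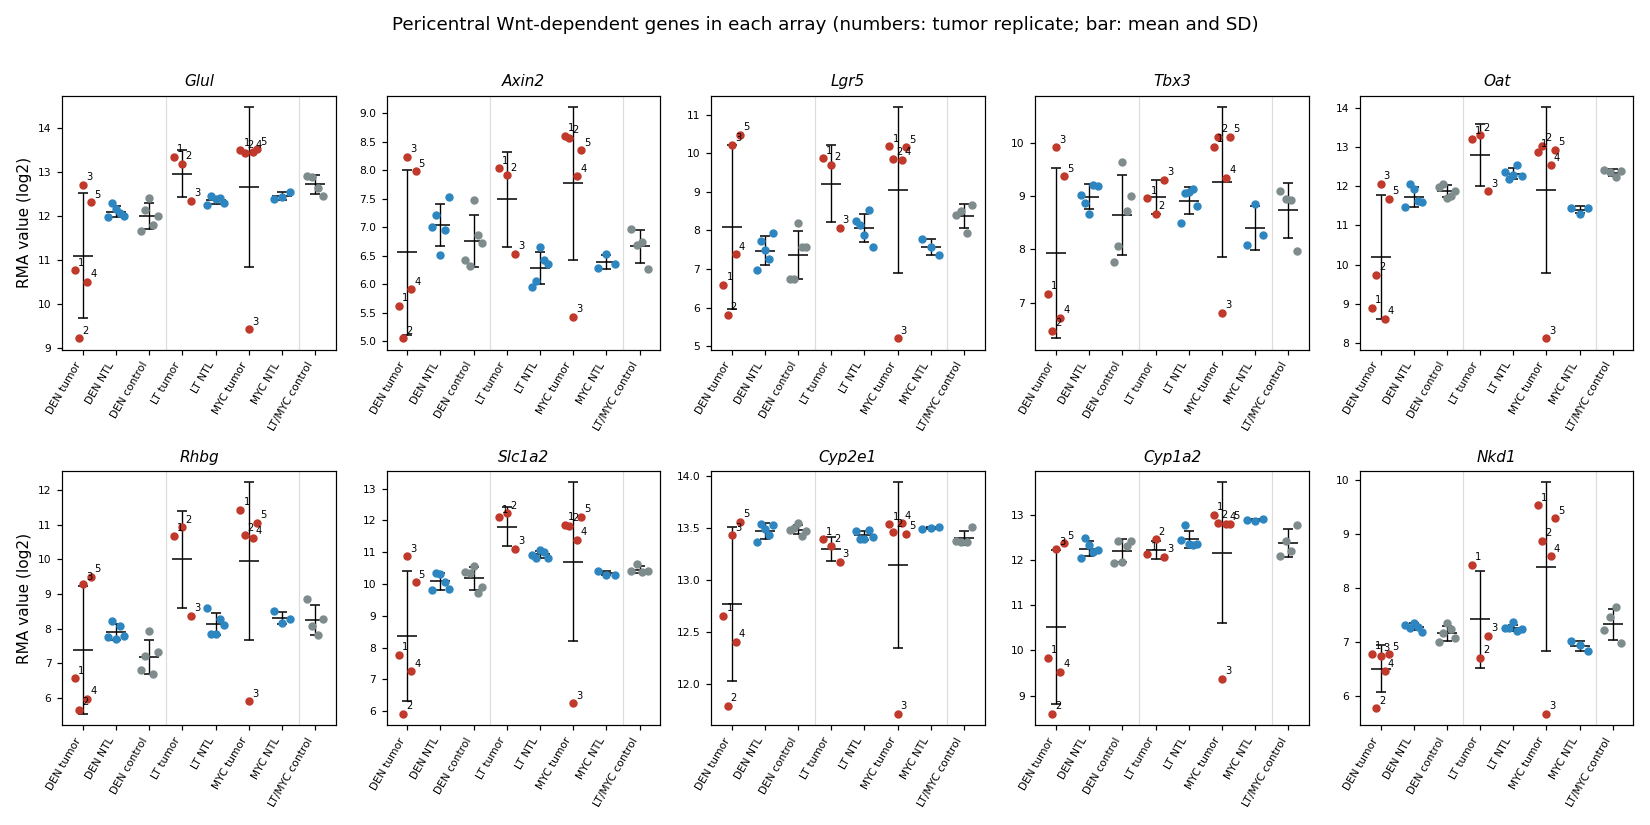
Log2 values of the 10 genes on every array, by group, with tumors left of the NTL and controls of their model. The bars give the mean and SD of each group, and the numbers mark tumor replicates. MYC tumor 3 is the lowest MYC array in each panel.

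Tbx3, a transcription factor induced by beta-catenin in liver tumors, read 7.17, 6.47, 9.92, 6.72 and 9.38 in DEN tumors, against 8.67 to 9.21 in DEN NTL and 7.76 to 9.64 in DEN controls. It read 9.93, 10.12, 6.81, 9.35 and 10.12 in MYC tumors, against 8.08 to 8.86 in MYC NTL and 7.97 to 9.10 in LT/MYC controls. In LT tumors it was 8.96, 8.67 and 9.31, against 8.50 to 9.13 in LT NTL. The DEN and MYC tumors divided as for Glul, whereas LT tumors 1 and 2 stayed within the range of the non-tumor arrays.

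Oat, ornithine aminotransferase, which feeds glutamate to glutamine synthesis, and Rhbg, an ammonia transporter of the same hepatocytes, had wide swings. Oat read 8.89, 9.74, 12.06, 8.61 and 11.68 in DEN tumors, against 11.46 to 12.05 in DEN NTL and 11.69 to 12.05 in DEN controls. In MYC tumors Oat was 12.87, 13.04, 8.12, 12.53 and 12.93, against 11.30 to 11.46 in MYC NTL, and in LT tumors it was 13.21, 13.30 and 11.87, against 12.18 to 12.54 in LT NTL. LT tumor 3 and MYC tumor 3 were below and the other LT and MYC tumors above their NTL. In LT/MYC controls Oat was 12.22 to 12.41, above all MYC NTL. Its mean change in MYC tumors was 0.50 against NTL and -0.45 against these controls (limma adjusted p = 0.686 and 0.7). Without MYC tumor 3 these changes were 1.44 and 0.49 (adjusted p = 0.0349 and 0.503). Oat was lower in DEN tumors than in DEN controls, with a change of -1.67 ± 0.63 (SE, limma adjusted p = 0.0427). It was 1 of 3 members called there, all lower, where 30.7% of all genes were called, 15.6% as lower. That call did not hold with arrays of a shared stem averaged (adjusted p = 0.0611) or with the replicate number as a block (adjusted p = 0.0511), nor with Xist as a covariate (adjusted p = 0.0573). It was also lost in 8 of 10 fits that left out 1 array, and with the compared groups alone in the fit (adjusted p = 0.0711).

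Rhbg read 6.56, 5.66, 9.27, 5.97 and 9.49 in DEN tumors, against 7.69 to 8.21 in DEN NTL and 6.67 to 7.93 in DEN controls. It read 10.68, 10.93 and 8.37 in LT tumors, against 7.83 to 8.58 in LT NTL, and 11.43, 10.69, 5.90, 10.61 and 11.05 in MYC tumors, against 8.15 to 8.49 in MYC NTL. Tumors on the high side were 1.37 to 3.12 above their NTL mean (DEN tumors 3 and 5, LT tumors 1 and 2, MYC tumors 1, 2, 4 and 5). The mean change was 1.87 ± 0.85 in LT and 1.63 ± 0.85 in MYC tumors (SE, limma adjusted p = 0.125 and 0.18). Without LT tumor 3 it was 2.68 ± 0.94 in LT (adjusted p = 0.0325), and without MYC tumor 3 it was 2.64 ± 0.64 in MYC (adjusted p = 0.00331).

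Slc1a2, a glutamate transporter, followed Glul most closely. It read 7.78, 5.92, 10.88, 7.25 and 10.06 in DEN tumors, against 9.81 to 10.35 in DEN NTL and 9.70 to 10.56 in DEN controls. It read 12.10, 12.22 and 11.10 in LT tumors, against 10.82 to 11.09 in LT NTL, and 11.87, 11.84, 6.25, 11.40 and 12.12 in MYC tumors, against 10.29 to 10.41 in MYC NTL. Relative to the NTL mean DEN tumor 2 was at -4.16 and MYC tumor 3 at -4.09, lower than any other member in any of the 13 tumors. The mean change was -1.70 ± 0.76 in DEN, 0.88 ± 0.88 in LT tumors and 0.36 ± 0.88 in MYC tumors (SE, limma adjusted p = 0.0876, 0.533 and 0.82).

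Cyp2e1 and Cyp1a2, cytochrome P450 enzymes that oxidise small solvents and aromatic amines, were low in the same tumors as Glul but changed little in the others. Cyp1a2 read 9.83, 8.60, 12.24, 9.53 and 12.37 in DEN tumors, 12.04, 12.49, 12.33, 12.17 and 12.23 in DEN NTL and 11.92, 12.42, 11.96, 12.31 and 12.42 in DEN controls. It read 12.997, 12.83, 9.37, 12.79 and 12.79 in MYC tumors and 12.87, 12.86 and 12.90 in MYC NTL. The 4 MYC tumors with high Glul were at -0.09 to 0.12 from the NTL mean of Cyp1a2, and MYC tumor 3 was at -3.51. Cyp1a2 was 12.13, 12.46 and 12.07 in LT tumors, against 12.34 to 12.78 in LT NTL.

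Cyp2e1 read 12.66, 11.80, 13.43, 12.41 and 13.56 in DEN tumors, against 13.37 to 13.54 in DEN NTL, and 13.54, 13.46, 11.72, 13.55 and 13.45 in MYC tumors, against 13.49 to 13.52 in MYC NTL. In LT tumors Cyp2e1 was 13.39, 13.33 and 13.18, against 13.39 to 13.48 in LT NTL. Most of these values are close to the array maxima of 14 to 14.3. Both genes were called lower in DEN tumors than in NTL: Cyp1a2 changed by -1.74 ± 0.54 (SE, limma adjusted p = 0.0141) and Cyp2e1 by -0.70 ± 0.25 (adjusted p = 0.034), each below all DEN NTL and controls in 3 of 5 tumors. Against DEN controls they changed by -1.69 ± 0.54 and -0.71 ± 0.25 (adjusted p = 0.0165 and 0.031). Neither call against NTL held without DEN tumor 2 (adjusted p = 0.0683 and 0.154), and that of Cyp2e1 was lost in 7 of 10 fits that left out 1 array. With DEN tumor and NTL arrays alone in the fit, they also missed the threshold (adjusted p = 0.0694 and 0.0919). So did the calls against DEN controls with those groups alone in the fit (adjusted p = 0.0873 for Cyp1a2 and 0.0961 for Cyp2e1).

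**Figure D3:**
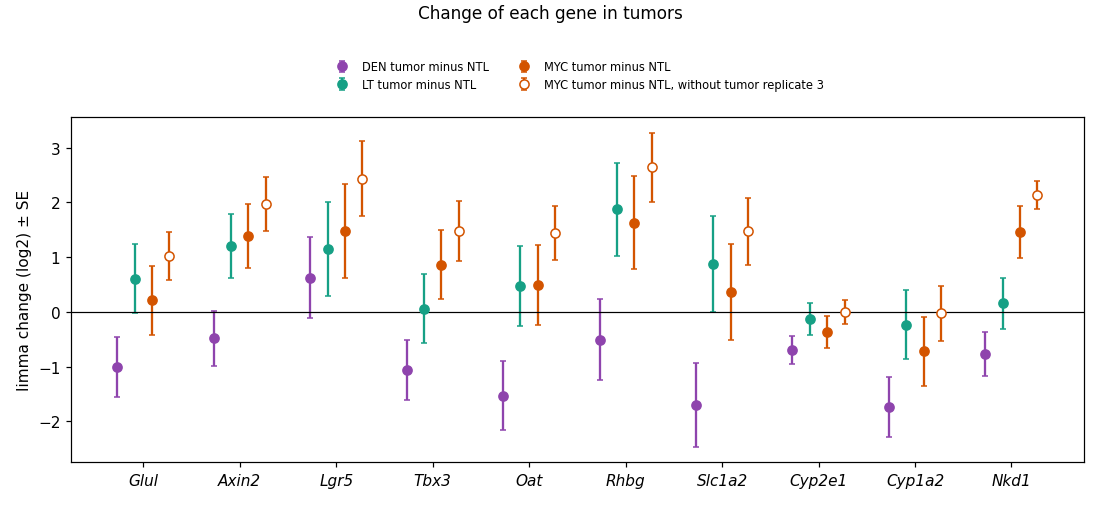
Change of each gene against NTL in log2 units with its SE from limma, for DEN (5 against 5 arrays), LT (3 against 5) and MYC tumors (5 against 3), and for MYC with tumor 3 left out (open circles). Leaving out that array moves the MYC change of Glul to 1.02 and that of Lgr5 to 2.44, while Cyp2e1 and Cyp1a2 come to lie at about 0.

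The counts of called members depended on single arrays, NTL arrays included. Leaving out 1 array changed the count in 9 of 10 fits for DEN tumors against NTL. For MYC tumors against NTL it did so in 7 of 8. The highest counts came without a single tumor. Without MYC tumor 3, 5 of 10 were higher in MYC tumors than in NTL (Axin2, Lgr5, Oat, Rhbg and Nkd1), where 21.2% of all genes were called. Glul then changed by 1.02 ± 0.43 (limma adjusted p = 0.0925). Without DEN tumor 3, 5 of 10 were lower in DEN tumors than in NTL, against 28.5% of all genes, and without DEN tumor 2 none was, against 30.0%. In comparison with the LT/MYC controls, where 20.5% of all genes were called (10.2% higher and 10.3% lower), no member was called in MYC tumors and 3 had an unadjusted p under 0.05, and 3 were called without MYC tumor 3 (Axin2, Rhbg and Nkd1), against 20.1% of all genes. No member was called in LT tumors against those controls, where 16.5% of all genes were (8.78% higher and 7.73% lower), and none had an unadjusted p under 0.05. Both comparisons share the same 4 control arrays.

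No member was called between NTL and controls in any model, where 0.197% (DEN, 0.0691% higher and 0.128% lower), 2.41% (LT, 1.37% higher and 1.04% lower) and 3.83% (MYC, 1.66% higher and 2.17% lower) of all genes were called, and none had an unadjusted p under 0.05. The SD of Glul over arrays was 1.42 in DEN tumors, 0.13 in DEN NTL and 0.30 in DEN controls, and 1.82 in MYC tumors, 0.08 in MYC NTL and 0.21 in LT/MYC controls. For each of the 10 members the SD over tumor arrays was above that over NTL and over control arrays in DEN and in MYC. In LT this was not so for Tbx3 (SD 0.32 in LT tumors, 0.26 in LT NTL and 0.51 in LT/MYC controls) and Cyp1a2 (SD 0.21, 0.19 and 0.30 in the same groups). The share of all genes with a larger SD in tumors was not counted, so nothing is read from these counts. With MYC NTL and controls alone in the fit, Oat (-0.95, adjusted p = 0.000464) and Lgr5 (-0.81, adjusted p = 0.0246) were lower in MYC NTL, where 8.17% of all genes were called, and with LT NTL and controls alone Slc1a2 was higher in LT NTL by 0.48 (adjusted p = 0.0175), where 3.11% were.

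Over the 35 arrays, with each value taken as its deviation from its group mean, Pearson's r of the 45 member pairs ran from 0.66 (Tbx3 and Nkd1) to 0.98 (Glul and Slc1a2), with a median of 0.89. Spearman's rho, which weighs the extreme arrays less, ran from 0.36 (Tbx3 and Oat) to 0.88 (Oat and Slc1a2), with a median of 0.71. The genes most like Glul among all 18820 were Slc1a2 (r = 0.98, rho = 0.87), Cyp2e1 (0.97, 0.76), Lect2 (0.97, 0.81), Rhbg (0.94, 0.83) and Lgr5 (0.94, 0.79). Without the 2 arrays farthest from the median of Glul, MYC tumor 3 and DEN tumor 2, these r were 0.95, 0.92, 0.90, 0.91 and 0.88. For Axin2 they were Lect2 (0.94), Lgr5 (0.94), Tnfrsf19 (0.92), Gulo (0.92) and Rhbg (0.92), and for Cyp2e1 they were Glul, Slc1a2 and Cyp1a2 (each 0.97), Rgn (0.96) and Lect2 (0.95). The arrays share their normalization and some tumors share a stem, and the values are a description.

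Other pericentral genes, a list of 28 of which 25 had a probe set of their own, also varied from tumor to tumor. Of the 25, 16, 19, 11, 20 and 11 were below the range in DEN tumors 1 to 5 and 0, 1, 8, 2 and 10 above it. In MYC tumors 1, 3, 21, 6 and 5 were below and 16, 16, 0, 12 and 14 above, and in LT tumors 6, 4 and 9 were below and 10, 13 and 2 above. Over all genes, 14.4% to 30.2% were below and 13% to 23.5% above, depending on the tumor. Lect2, a hepatokine and known beta-catenin target, read 10.97, 10.10, 12.93, 11.63 and 13.02 in DEN tumors, against 12.07 to 12.29 in DEN NTL. It read 12.73, 12.59, 8.94, 12.26 and 12.46 in MYC tumors, against 11.89 to 12.05 in MYC NTL. Lect2 thus lay on the same side of the NTL mean as Glul in all 10 of these tumors, and the LT tumors are not given here. It was among the genes most like Glul over the same arrays, so the match is no separate support.

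By limma, 13 of the 25 were lower in DEN tumors than in NTL and none higher, 4 were higher and 2 lower in LT tumors, and 2 were higher and 2 lower in MYC tumors. Of all genes, 16.7% were lower and 15.6% higher in DEN tumors, 9.73% lower and 10.7% higher in LT tumors, and 10.3% lower and 11.5% higher in MYC tumors, and these shares stand behind every list counted by limma below. The counts in LT and MYC tumors lay near them. The median change of the list was -0.73, 0.17 and -0.01. Fitm1, a protein of lipid droplets, changed by -3.96 ± 0.66 in DEN tumors, Cyp2c54 by -3.89 ± 0.71 and Cyp2c50 by -3.24 ± 0.72 (SE, limma adjusted p = 2.55e-05, 8.28e-05 and 0.000819). Cyp2c54 was at -4.48 to -2.81 from the NTL mean in the 5 DEN tumors, those with high Lgr5 included. In LT tumors Slc13a3, a dicarboxylate transporter, rose by 2.38 ± 0.81, Gstm2, a glutathione transferase, by 1.16 ± 0.37 and Gstm3 by 0.92 ± 0.34 (adjusted p = 0.0357, 0.0236 and 0.0496), and Cyp2c54 changed by -3.85 ± 0.82 (adjusted p = 0.00119). In MYC tumors Gstm2 rose by 1.21 ± 0.37 and Cldn2, a tight junction protein, by 1.02 ± 0.21, and Cyp2c37 changed by -1.83 ± 0.66 (adjusted p = 0.0169, 0.000802 and 0.0443). Cyp2c and Gstm genes have close paralogs that probe sets can share.

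Periportal genes, 17 measured of 21 listed, had lower medians in the tumors with Lgr5 above the range than in the others. In MYC tumors 1, 2, 4 and 5 the median difference of the list from the NTL mean was -1.46, -1.88, -1.23 and -1.04, with 16, 16, 15 and 14 of 17 genes below the range, and in MYC tumor 3 the median difference was 0.02 with 5 genes below. In DEN tumors 3 and 5 the median was -1.29 and -1.25 with 14 genes below in each. DEN tumors 1, 2 and 4 had medians of -0.34, 0.11 and -0.42, with 10, 6 and 11 genes below. In LT tumors 1 to 3 it was -1.45, -0.68 and 0.03, with 15, 12 and 2 below. Over all genes the median lay between -0.07 and -0.01 in every tumor.

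Cyp2f2, a periportal P450, read 11.37, 11.26, 7.51, 10.39 and 9.03 in DEN tumors, against 13.21 to 13.33 in DEN NTL, and 10.77, 7.95, 12.82, 11.23 and 11.37 in MYC tumors, against 13.35 to 13.38 in MYC NTL. Among these 10 tumors it was lowest in DEN tumor 3 and nearest to its NTL in MYC tumor 3. By limma 8 of the 17 fell and 1 rose in DEN tumors, 6 fell in LT tumors, and 12 fell and 1 rose in MYC tumors, where 16.7%, 9.73% and 10.3% of all genes fell in the same order of models. Cyp2f2 fell in all 3, with changes of -3.34 ± 0.72 in DEN, -2.57 ± 0.83 in LT tumors and -2.53 ± 0.83 in MYC tumors (SE, limma adjusted p = 0.000555, 0.0267 and 0.0278). In MYC tumors Hal, which breaks down histidine, changed by -2.94 ± 0.79 and Nags, which makes the activator of the urea cycle, rose by 0.48 ± 0.12 (adjusted p = 0.00734 and 0.00333). Cdh1, E-cadherin, changed by -2.58 ± 0.70 in MYC tumors and rose by 2.76 ± 0.61 in DEN tumors (adjusted p = 0.00807 and 0.000697). It was 2.46 to 3.02 above the NTL mean in every DEN tumor.

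**Figure D4:**
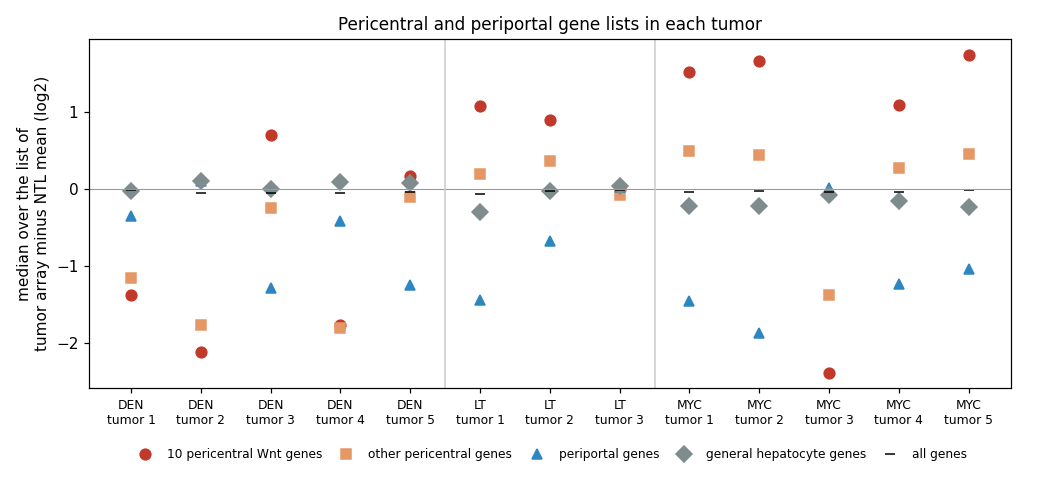
Median over 4 gene lists, and over all genes, of the log2 value of each tumor minus the NTL mean of its model. In MYC tumor 3 the 10 genes are at -2.39 and periportal genes at 0.02, while in MYC tumor 2 they are at 1.68 and -1.88, and genes of hepatocytes in general stay between -0.30 and 0.11 in all 13 tumors.

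Of 13 genes of hepatocytes in general, 2, 0, 3, 2 and 3 were below the range in DEN tumors 1 to 5, 10, 5 and 1 in LT tumors, and 10, 10, 6, 7 and 9 in MYC tumors. Above it were 2, 6, 2, 6 and 3 in DEN tumors. The counts above were 0, 1 and 4 in LT tumors and 1, 0, 0, 1 and 0 in MYC tumors. Over all genes, the share below was 14.4% to 30.2% and the share above 13% to 23.5%, for this list and those that follow. The median difference of the 13 genes from NTL ran from -0.30 to 0.11 over the 13 tumors, and was -0.08 in MYC tumor 3. Alb, serum albumin, lay at -0.10 to 0.11 from the NTL mean. By limma 2 of the 13 genes rose and 1 fell in DEN tumors, 3 fell in LT tumors and 6 fell in MYC tumors, where all 13 changes were negative. Markers of other cells moved in part with the tumors. Kupffer cell genes were below the range for 7 or 8 of 8 members in each DEN tumor, and lymphocyte genes were above it for 7, 2 and 4 of 7 members in LT tumors. Proliferation genes were above it for 9 of 9 in MYC tumor 3, whose median of 3.37 was the highest of all tumors, and for 8 or 9 of 9 in the others except LT tumor 3 with 4. Their part in the member values was not tested.

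Upstream of the members, the ligand Wnt2 was lower in the tumors of all 3 models. Wnt2, a ligand of sinusoidal and central vein endothelium, read 5.17, 4.81, 4.30, 5.34 and 4.48 in DEN tumors, against 5.66 to 6.16 in DEN NTL. It read 4.10, 4.48 and 5.23 in LT tumors, against 5.56 to 5.96 in LT NTL, and 4.84, 4.88, 5.00, 5.00 and 4.95 in MYC tumors, against 5.64 to 5.95 in MYC NTL. Tumor and NTL did not overlap in any model, but the share of all genes without overlap was not counted, so nothing is read from that. MYC tumor 3 was not set apart from the other MYC tumors. All these tumor values were dim, below the array medians of 5.59 to 5.73, where first quartiles were 4.13 to 4.24. Wnt2 fell, with changes of -1.11 ± 0.17 in DEN, -1.13 ± 0.20 in LT tumors and -0.85 ± 0.20 in MYC tumors (SE, limma adjusted p = 7.68e-06, 0.000179 and 0.00207).

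Rspo3, the R-spondin of the central vein, fell, with changes of -1.79 ± 0.20 in DEN and -0.97 ± 0.24 in MYC tumors (SE, limma adjusted p = 5.59e-08 and 0.00333) and changed by -0.31 ± 0.24 in LT tumors (adjusted p = 0.383). It read 5.83, 5.24, 5.11, 6.61 and 5.24 in DEN tumors, against 7.16 to 7.58 in DEN NTL, and was as low in tumors 3 and 5 with high Lgr5 as in tumor 2. Rspo3 was also lower in MYC NTL than in LT/MYC controls, with a change of -0.93 ± 0.25 (adjusted p = 0.0258). Wnt9b, a ligand of central vein endothelium, changed by -0.29 ± 0.10 in DEN tumors (adjusted p = 0.0219), by -0.22 ± 0.11 in LT and by -0.25 ± 0.11 in MYC tumors (adjusted p = 0.179 and 0.109). Of the 14 ligands and secretion factors listed, 1 rose and 4 fell in DEN tumors, 1 rose and 3 fell in LT tumors, and 1 rose and 2 fell in MYC tumors. Wnt5a, a ligand of the beta-catenin-independent branch, was the one that rose in DEN (0.73 ± 0.26, adjusted p = 0.027) and in MYC tumors (0.92 ± 0.29, adjusted p = 0.0242).

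Ctnnb1, the gene of beta-catenin itself, was higher in DEN tumors than in NTL by 0.63 ± 0.06 (SE, limma adjusted p = 6.91e-09) and in MYC tumors by 0.20 ± 0.07 (adjusted p = 0.0476), and changed by 0.11 ± 0.07 in LT tumors (adjusted p = 0.322). It read 11.12, 11.34, 11.38, 11.47 and 11.37 in DEN tumors, against 10.69 to 10.74 in DEN NTL. All 5 DEN tumors, with low or high Glul, were above all DEN NTL arrays, and an array of this kind reads neither mutations nor protein. The share of all genes without overlap was not counted here either. Lgr4, a receptor for R-spondins, changed by -0.99 ± 0.23 in MYC tumors (adjusted p = 0.00228), by 0.13 ± 0.20 in DEN and -0.16 ± 0.23 in LT tumors (adjusted p = 0.665 and 0.683). Of 14 receptors, 2 rose and 3 fell in DEN, 1 rose and 4 fell in LT, and 1 rose and 7 fell in MYC tumors, where 32.2%, 20.4% and 21.8% of all genes were called in either direction. Fzd4, a frizzled receptor, changed by -1.54 ± 0.18 in MYC and -0.77 ± 0.18 in LT tumors (adjusted p = 4.21e-07 and 0.00233), and Lrp5, a co-receptor, rose by 0.84 ± 0.21 and 0.89 ± 0.21 there (adjusted p = 0.00476 and 0.00349). Of 18 genes of the beta-catenin machinery, 5 rose and 1 fell in DEN, 1 rose and 2 fell in LT, and 2 rose and 3 fell in MYC tumors. Tcf7l2, the main TCF factor of hepatocytes, fell in all 3, with changes of -0.32 ± 0.11 in DEN, -0.38 ± 0.13 in LT tumors and -0.37 ± 0.13 in MYC tumors (adjusted p = 0.027, 0.0347 and 0.0348).

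**Figure D5:**
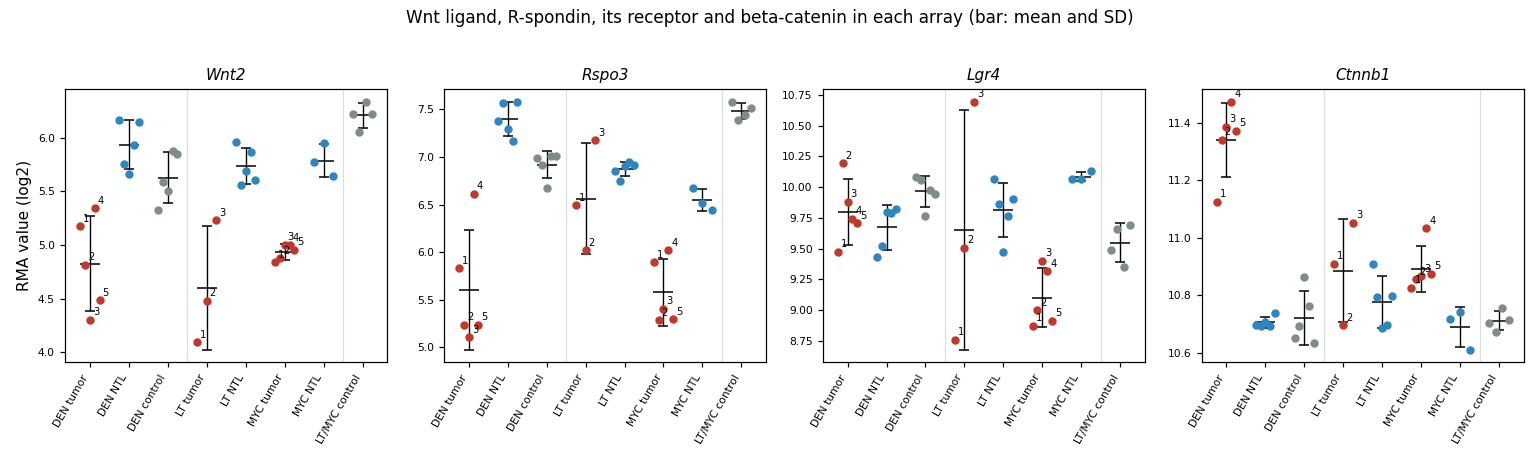
Log2 values of Wnt2, Rspo3, Lgr4 and Ctnnb1 on every array by group, tumors left of NTL and controls, with the mean and SD. Wnt2 is below every NTL array in all tumors of the 3 models, and Ctnnb1 is above every DEN NTL array in all 5 DEN tumors. The share of all genes without overlap was not counted.

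Feedback genes of the pathway that are no members were also counted in each tumor. Of 18 measured, 9 and 10 were above the range in DEN tumors 3 and 5, 10 and 7 in LT tumors 1 and 2, and 8, 9, 6 and 8 in MYC tumors 1, 2, 4 and 5. In DEN tumors 1, 2 and 4, LT tumor 3 and MYC tumor 3 there were 5, 4, 3, 2 and 3. Below the range were 2, 4, 1, 7 and 0 in DEN tumors 1 to 5 and 1 in each LT tumor. In MYC tumors 1 to 5 the counts below were 2, 4, 4, 4 and 3, so MYC tumor 3 was not set apart there. Over all genes 13% to 23.5% were above the range and 14.4% to 30.2% below, depending on the tumor. Notum, a secreted enzyme that inactivates Wnt ligands, read 5.54, 6.60, 8.37, 5.49 and 8.14 in DEN tumors, against 6.48 to 7.001 in DEN NTL, and 8.18, 8.12, 5.55, 8.61 and 8.55 in MYC tumors, against 7.23 to 7.38 in MYC NTL. Notum was on the high side in DEN tumors 3 and 5 and in the 4 MYC tumors with high Glul, and low in MYC tumor 3. Sp5, a transcription factor induced by Wnt, rose by 0.84 ± 0.25 in MYC tumors (SE, limma adjusted p = 0.0162), in which MYC tumor 3 was at -0.25 from the NTL mean and the others at 0.69 to 1.64. In DEN tumors Sp5 changed by -0.27 ± 0.22 (adjusted p = 0.36), and DEN tumors 3 and 5 were 0.06 and 0.04 above the NTL mean, so that Sp5, like Nkd1, was not raised where Axin2, Lgr5 and Notum were.

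Other listed targets were called in 1 or 2 of the models. Sox9, a progenitor factor, rose by 1.93 ± 0.24 in DEN tumors (adjusted p = 2.1e-07) and lay 1.67 to 2.28 above the NTL mean in all 5. Ccnd1, cyclin D1, rose by 1.56 ± 0.38 in DEN and 1.34 ± 0.44 in LT tumors (adjusted p = 0.00191 and 0.0282). Cd44, an adhesion receptor, rose by 1.87 ± 0.35 in LT tumors (adjusted p = 0.00037). Myc rose by 1.94 ± 0.61 in MYC tumors (adjusted p = 0.0217). It read 8.88, 9.71, 9.56, 10.52 and 9.60 in MYC tumors and 9.48, 6.42 and 7.25 in MYC NTL, so MYC tumor 3 was in the middle of its group. Whether this probe set reads the transgene is not given in the sources used here. By limma 3 of the 18 rose and 1 fell in DEN tumors, 3 rose and 1 fell in LT tumors, and 2 rose and 1 fell in MYC tumors. Of 10 secreted inhibitors, 1 fell in DEN tumors, 2 rose and 1 fell in LT tumors, and 2 fell in MYC tumors.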

How the data were processed

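Total RNA of liver was hybridised to Affymetrix mouse gene arrays. The deposited values are log2 values made by the authors with RMA, per the submitters' processing notes, and its version is not given in the sources used here. Of 35556 probe sets, 21218 had 1 symbol, 1881 several and 12457 none, and the brightest single-symbol probe set stood for each of 18820 genes. Array medians lay between 5.59 and 5.73, and the number of arrays limits the precision. No dim gene was left out. Group comparisons used limma (version 3.58.1, with R version 4.3.3), fitting 8 group means over 35 arrays with lmFit and two-sided eBayes tests, adjusted by Benjamini-Hochberg over all genes, with a call under 0.05. The fit was tested on simulated data. Nothing states that arrays come from separate animals, so p-values measure the spread between arrays.

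Members, lists and the genes named were chosen with earlier results of these data known. Beside the members, 15 lists were used, of which those of sinusoidal endothelium, stellate cells and bile duct cells appear in the closing section. The genes named are the members, a fixed set (Ctnnb1, Wnt2, Wnt9b, Rspo3, Lgr4, Notum, Sp5, Lect2, Cyp2f2, Alb, Myc and Xist among them), up to 3 called genes of a list in its main direction and 1 in the other, and the 5 genes most correlated with Glul, Axin2 and Cyp2e1. Alternatives were median centring, fits on the compared groups alone, other probe set rules, left-out arrays, averaged stems, Xist as a covariate, trend and robust eBayes, and replicate number as a block. Upstream sequences came from RefSeq. Same-numbered arrays had deviations correlated at -0.38 to 0.29, so the numbers were not taken to pair samples.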

Additional observations from a re-analysis of the deposited data

Results flagged for a closer look

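In groups of 4 to 10 arrays, the gap of the highest or lowest array to its nearest neighbour was set against the range of the group for each member (Dixon's test at 95%). Of 60 such sets, 14 had a value that stood apart. The members varied together over these arrays, so the sets are not independent and the count is not set against chance. In 10 of the 14 the value was that of MYC tumor 3, once for each member. It read 9.41 for Glul, against 13.43 to 13.52 in the other 4 MYC tumors, 5.43 for Axin2 (7.90 to 8.60), 5.21 for Lgr5 (9.84 to 10.18) and 6.81 for Tbx3 (9.35 to 10.12). It read 8.12 for Oat (12.53 to 13.04), 5.90 for Rhbg (10.61 to 11.43), 6.25 for Slc1a2 (11.40 to 12.12) and 11.72 for Cyp2e1 (13.45 to 13.55). It read 9.37 for Cyp1a2 (12.79 to 12.997) and 5.68 for Nkd1 (8.58 to 9.53). The 10 values are of 1 array and are not independent.

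The other 4 were in livers without tumor. LT/MYC control 4 had 7.97 for Tbx3, against 8.93 to 9.10 in the other 3 controls, and 13.51 for Cyp2e1, against 13.37 in each of the others. LT/MYC control 2 had 10.64 for Slc1a2, against 10.37 to 10.42. LT NTL 2, the LT NTL array with low Xist, had 12.78 for Cyp1a2, against 12.34 to 12.45.

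The change of Nkd1 differed between models: the DEN change minus the MYC change was -2.23 ± 0.62 (SE, limma adjusted p = 0.0134), with all 5 DEN tumors below their NTL and 4 of 5 MYC tumors above theirs. How many of all genes separate tumor from NTL in this way was not counted. DEN and MYC mice were in different experiments, which cannot be told apart from the models.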

How the results depend on the processing

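Counts of called members were those reported under median centring, without dim genes, with the mean of a gene's probe sets and with trend and robust eBayes. With arrays of a shared stem averaged, Xist as a covariate or the replicate number as a block, 1 call changed: Oat in DEN tumors against controls, at -1.75 (adjusted p = 0.0611), -1.70 (0.0573) and -1.67 (0.0511). The block changed no other call. Same-numbered arrays had correlations over 0.1 in all 3 pairs only between LT tumors and LT/MYC controls (0.14 to 0.23), each array correlating best with its own number. The dimmer Glul probe set, chosen after seeing the data, changed no call. With the compared groups alone in the fit, which have fewer arrays to estimate the spread, the count was 1 in DEN tumors against NTL and against controls (Nkd1 in both), 0 in MYC tumors against NTL, 1 in LT NTL against controls, 2 in MYC NTL against controls and 0 for the DEN against the MYC change (Nkd1, adjusted p = 0.0572). Leaving out 1 array gave 0 (without DEN tumor 2) to 5 (without DEN tumor 3) in DEN tumors against NTL, 0 (without DEN tumor 2) to 4 (without DEN tumor 3) against controls, and 0 to 1 (without LT tumor 3) in LT tumors against NTL. In MYC tumors it gave 0 (without MYC NTL 1, among others) to 5 against NTL and 0 to 3 against controls, for the DEN against the MYC change 1 to 7, and for the LT against the MYC change 0 to 1, each highest without MYC tumor 3. The cause of these changes was not tested. No called change reversed under any alternative run. The number of arrays limits what could be called, and Cyp2e1 lay near the top of the array scale.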

Other observations

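Marker genes of other cells of the liver varied over the same tumors, and their part in the member values was not tested. Over all genes, the share below the range was 14.4% to 30.2% and the share above it 13% to 23.5%, depending on the tumor. Some of the counts given here lie near those shares, and nothing is read from them. Sinusoidal endothelial genes (8 measured) were below the range for 7 of 8 in each of the 5 MYC tumors, MYC tumor 3 included, with medians of -1.20 to -0.41 against the NTL mean. In LT tumors 8 of 8 were below in tumor 2 and 4 in tumor 1, and none in tumor 3. In DEN tumors 3 and 5, 5 of 8 were below, against 1, 1 and 0 in tumors 1, 2 and 4. Genes of stellate cells and matrix (10 measured) were above the range for 8 in LT tumor 1, with a median of 1.79, and below it for 1. In LT tumors 2 and 3 they were above it for 4 and 5 and below it for 5 and 0. In MYC tumors 1 to 5 they were above it for 1, 0, 1, 1 and 0 and below it for 3, 7, 7, 7 and 9. In DEN tumors 1 to 5 they were above it for 4, 4, 4, 5 and 4 and below it for 3, 6, 4, 2 and 4. Bile duct genes (6 measured) were above it for 4, 2, 5, 3 and 6 in DEN tumors 1 to 5 and below it for 0, 3, 0, 0 and 0. In LT tumors 1 to 3 they were above it for 5, 2 and 3 and below it for 0, 0 and 0. In MYC tumors 1 to 5 they were above it for 0, 0, 0, 1 and 2 and below it for 2, 5, 4, 3 and 4. Central vein endothelial genes (9 measured) were above it for 6, 5 and 0 in LT tumors 1 to 3 and below it for 3, 3 and 4. In MYC tumors 1 to 5 they were above it for 0, 2, 1, 1 and 0 and below it for 6, 4, 7, 5 and 6. In DEN tumors 1 to 5 they were above it for 2, 2, 2, 3 and 2 and below it for 2, 4, 4, 1 and 3.

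Some pericentral genes were raised in DEN tumors 3 and 5 although Cyp2c genes were low there. Slc13a3 was 3.10 and 2.91 above the NTL mean in those tumors and at -2.87 in MYC tumor 3, and Gulo, which makes vitamin C in mice, was 1.00 and 0.93 above. Tnfrsf19, a receptor induced by Wnt, was 2.08 and 2.04 above in DEN tumors 3 and 5 and 1.81 and 1.74 above in LT tumors 1 and 2. Cyp2c54 was at -6.51 from the NTL mean in LT tumor 3, in which 2 of the 10 members were above the range and 3 below.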
